A study of Mus musculus with 14 samples.

Results

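The genes described here are 6 linked to embryonic cells, some of which adult tissues make too. These are the RNA-binding protein genes *Igf2bp1*, *Igf2bp2* and *Igf2bp3*, the let-7 regulator *Lin28b*, and the chromatin protein genes *Hmga1* and *Hmga2*. They are 6 of 17170 genes, and 18 of 41031 probe sets, that passed a signal of 20 on at least 1 of 14 arrays. All 6 genes and all 18 of their probe sets passed, *Lin28b* only through 3 adult arrays. The genes were chosen on their signals in fetal and adult cells of these same arrays, so the fetal comparisons of the 6 genes are given as a description, with no p. Comparisons among the adult populations carry a test, although their results were known as well.

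Gene expression was measured on an Affymetrix MOE430 2.0 array for each of 14 mouse prostate samples. UGE (3 samples) is the epithelium of the urogenital sinus of C57BL/6 embryos at day 16, the tissue that gives rise to the prostate, and the labels do not give its sex. The adult cells came from males of strain C57BL and 6 to 8 weeks old per the labels, C57BL/6 and 6 weeks old per the methods, from the part of the ducts nearest the urethra, and were sorted by the surface antigen Sca-1. Sca-1Hi (3 samples) held the 25% with the strongest label, Sca-1Lo (4 samples) the 40% with medium to low label, and Sca-1Neg (4 samples) the 25% without it. The labels name no transgene and no treatment for any of the mice. Whether the samples came from separate animals or pools is not stated, so the p-values measure the spread between these samples. The adult cells were sorted and the UGE was not, so the populations differ in handling as well as in age.

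Igf2bp proteins bind mRNAs in the cytoplasm, among them that of the fetal growth factor *Igf2*, and govern their stability, transport and translation. They are called oncofetal because they are abundant in embryos, scarce in most adult tissues and made again in many tumours. The let-7 microRNAs, which accumulate as cells differentiate, repress *Hmga2*, *Lin28b* and the *Igf2bp* genes among others. Lin28a and Lin28b bind the let-7 precursor and block its maturation, so that let-7 and Lin28 restrain each other. Hmga proteins bind the minor groove of AT-rich DNA and loosen chromatin in dividing cells.

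The let-7 RNAs themselves were not measured on these arrays. Their sequences are shown because the background above links most of the 6 genes, though not *Hmga1*, to this family. No let-7 site in the 6 genes is shown. RefSeq lists 11 let-7 family names for the mouse (GRCm38.p6), of which 10 share the seed GAGGUAG, the bases 2 to 8 that pair with a target and are in capitals here. Several members with that seed, and the exception, let-7j, read 5′ to 3′ as follows.
let-7a-5p: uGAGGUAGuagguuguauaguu
let-7d-5p: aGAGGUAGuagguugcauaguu
let-7g-5p: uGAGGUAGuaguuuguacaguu
miR-98-5p: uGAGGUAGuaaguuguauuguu
let-7j: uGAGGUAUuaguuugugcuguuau
The let-7a copy shown lies at chr13:48538239-48538260 (minus strand), let-7d at chr13:48536078-48536099 (minus strand), let-7g at chr9:106178846-106178867 (plus strand), miR-98 at chrX:151913229-151913250 (plus strand) and let-7j at chr3:140028281-140028304 (plus strand).

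Since 5 of the 6 genes were high together in UGE, the 250 bases before the start of 4 of them are shown as well, from RefSeq (GRCm38.p6), each on its gene's strand. *Igf2bp1* has no entry. Capitals mark matches, on either strand, to the E-box CACGTG, the CCAAT box CCAAT and the GC box GGGCGG, which did not overlap each other.
Igf2bp2, chr16:22163300-22163549, minus strand: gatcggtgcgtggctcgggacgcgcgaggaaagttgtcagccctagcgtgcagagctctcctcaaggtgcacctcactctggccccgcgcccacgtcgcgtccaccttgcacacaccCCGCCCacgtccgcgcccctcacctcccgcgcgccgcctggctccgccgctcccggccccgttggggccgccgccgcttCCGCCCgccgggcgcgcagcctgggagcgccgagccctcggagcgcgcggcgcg
Igf2bp3, chr6:49214955-49215204, minus strand: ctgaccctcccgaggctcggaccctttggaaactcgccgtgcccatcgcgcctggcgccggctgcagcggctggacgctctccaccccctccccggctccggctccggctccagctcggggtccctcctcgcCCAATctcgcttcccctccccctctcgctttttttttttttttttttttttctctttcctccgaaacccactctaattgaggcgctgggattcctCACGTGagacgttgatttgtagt
Hmga2, chr10:120476470-120476719, minus strand: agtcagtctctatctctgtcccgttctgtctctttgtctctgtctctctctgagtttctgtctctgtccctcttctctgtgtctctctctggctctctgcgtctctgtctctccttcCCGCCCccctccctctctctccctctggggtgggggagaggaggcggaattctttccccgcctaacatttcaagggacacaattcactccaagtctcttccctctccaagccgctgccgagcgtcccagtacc
Hmga1, chr17:27556324-27556573, plus strand: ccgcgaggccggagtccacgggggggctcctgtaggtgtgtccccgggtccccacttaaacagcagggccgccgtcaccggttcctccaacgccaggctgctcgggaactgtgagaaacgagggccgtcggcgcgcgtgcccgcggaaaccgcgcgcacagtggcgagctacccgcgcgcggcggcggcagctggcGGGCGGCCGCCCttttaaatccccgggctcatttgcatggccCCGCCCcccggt
No motif was common to all 4 windows. *Igf2bp3* held an E-box, whose first base lies at -23 from the start, and a CCAAT box at -118. An E-box was found in 6.02% of 32851 windows of the same length in the RefSeq table, and a CCAAT box in 33.8%. *Igf2bp2* held 2 GC boxes (-133 and -54), *Hmga1* 3 (-54, -48 and -12, of which the first and second adjoin) and *Hmga2* 1 (-133), against 32.7% of all windows with at least 1. The E2F site TTTNGCGC, present in 1.13% of all windows, was in none of the 4. The *Igf2bp3* window ends inside the annotated span of the gene (chr6:49085218-49215469), so it precedes only 1 of its starts. *Hmga1* has another listed start, whose window holds 4 GC boxes. *Igf2bp2* and *Hmga1* windows were 77.2% and 72.8% G and C, *Igf2bp3* 60.4% and *Hmga2* 56.4%. The window of *Lin28b* (chr10:45470202-45470451, minus strand), which had no high signal in UGE, held an E-box at -49 and a CCAAT box at -128 too. This window lies inside the annotated span of *Lin28b* (chr10:45376617-45486314), so it does not precede the outermost start of that gene. A match is a string of letters, and no binding was measured.

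The values below are PLIER signals on a linear scale. A gene stands for its probe set of highest mean log2 signal, and it was called where the Benjamini-Hochberg adjusted p of limma over all probe sets was under 0.05 and the change over 0.81 on the log2 scale. Of the 6 genes, 5 were higher in UGE than in each adult population, by 8.28-fold to 149.6-fold, and *Lin28b* was at 23.4 or less on every array. These 5 of 6 passed that rule in UGE over Sca-1Neg (16.4% of all genes passed it as higher), UGE over Sca-1Hi (15.9%) and UGE over Sca-1Lo (13.5%). The genes were chosen by these contrasts, which share the UGE arrays, so the choice fixes these counts and nothing is read from them. The median log2 difference of the 6 genes was 5.41 over Sca-1Neg, 4.85 over Sca-1Hi and 5.22 over Sca-1Lo, beside 0.07, 0.00 and -0.04 for all genes. Among adult cells 2 of the 6 were called in Sca-1Hi over Sca-1Neg (6.12% of all genes were called higher), 0 in Sca-1Lo over Sca-1Neg (1.69%) and 0 in Sca-1Hi over Sca-1Lo (0.0815%). Of the 6, 2 had an unadjusted limma p under 0.05 in Sca-1Lo over Sca-1Neg, as had 5601 of the 41031 probe sets. In Sca-1Hi over Sca-1Lo it was 1, as had 4031. The t-test of the methods, run here over all probe sets, called 0 of the 6 in each. It called only 2 and 0 of the 41031 probe sets higher, so these counts decide nothing. The study had first narrowed its genes by variation and significance.

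**Figure D1:**
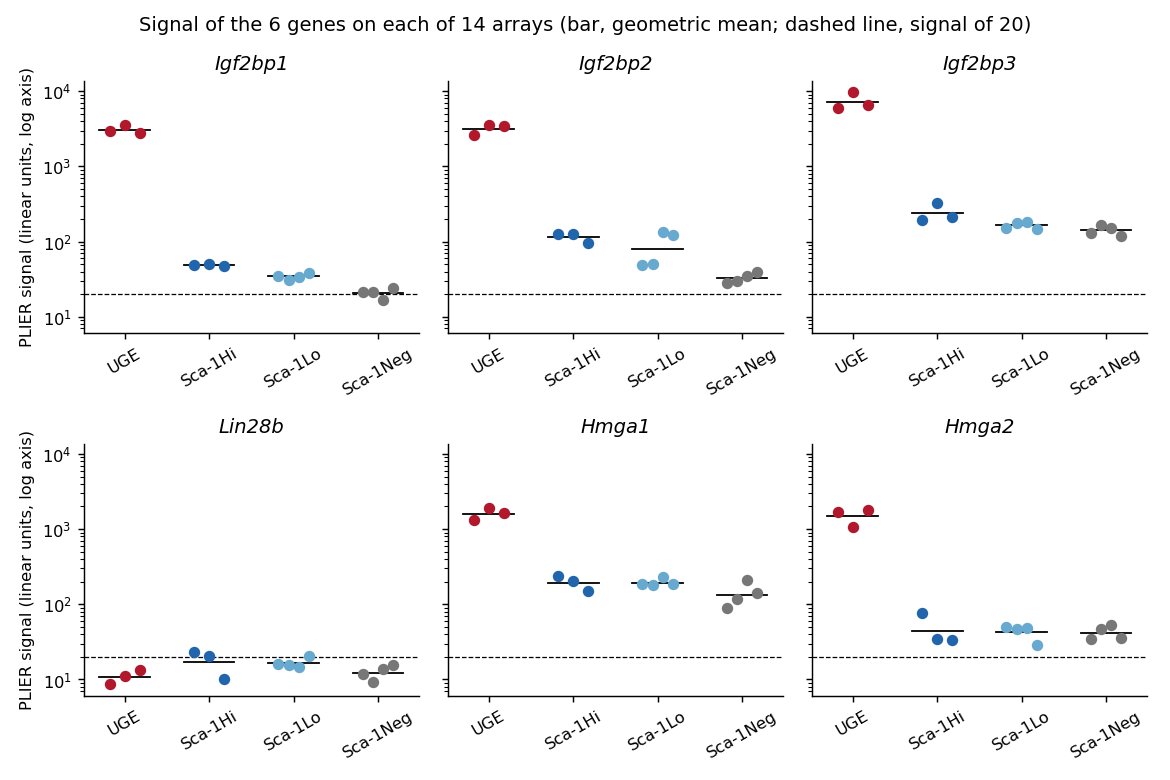
PLIER signal (log axis) of the 6 genes on each of the 14 arrays, by population. Each point is an array, the bar is the geometric mean and the dashed line is a signal of 20; 5 genes lie at 1070 or more on all UGE arrays and at 328 or less on all adult arrays, and *Lin28b* lies at 23.4 or less on every array.

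*Igf2bp1* (chr11:95957163-96005944), whose protein binds and shields mRNAs of growth regulators, had a signal of 2983, 3557 and 2795 in UGE, 48.5, 50.4 and 46.9 in Sca-1Hi, 35.4, 30.7, 34.0 and 38.1 in Sca-1Lo, and 21.1, 21.7, 16.8 and 23.8 in Sca-1Neg. No array of a population overlapped the next, so the order of the levels was UGE, Sca-1Hi, Sca-1Lo, Sca-1Neg. UGE exceeded Sca-1Neg by 7.22 ± 0.21 (SE) on the log2 scale, or 149.6-fold, and Sca-1Hi by 63.7-fold. With the gene as the mean of its probe sets the excess over Sca-1Neg was 4.60. Among the adults, Sca-1Hi exceeded Sca-1Neg by 1.23 ± 0.21 (2.35-fold, limma adjusted p = 0.00247). Sca-1Lo lay 0.73 ± 0.19 above Sca-1Neg (adjusted p = 0.0688) and Sca-1Hi lay 0.50 ± 0.21 above Sca-1Lo (adjusted p = 0.466), and neither was called. The Sca-1Neg signals lay at the minimum of 20.

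The other 3 probe sets of *Igf2bp1* did not carry the adult order. Of these, 2 were at or below 9.94 on every adult array. One read 467, 599 and 526 in UGE, at least 26.4-fold above Sca-1Neg, and the other 40.5, 55.8 and 50.6, at least 2.43-fold above. The fourth gave 34.1, 18.5 and 33.2 in UGE and 16.4 to 61.5 in adult cells, and was not high in UGE. Taking the gene as the mean of its probe sets brought the excess of Sca-1Hi over Sca-1Neg to 0.24 on the log2 scale (adjusted p = 0.596). By the first probe set the excess was 1.18 in the adult arrays of study numbers 1 and 2 alone, where Sca-1Hi is replicate 1 only.

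*Igf2bp2* (chr16:22059009-22163299), the member of the family that several adult tissues go on making, had a signal of 2621, 3570 and 3411 in UGE, 127, 127 and 94.5 in Sca-1Hi, 48.8, 50.6, 136 and 121 in Sca-1Lo, and 28.2, 29.7, 35.0 and 39.7 in Sca-1Neg. Sca-1Hi and Sca-1Lo arrays all lay above the Sca-1Neg arrays but overlapped each other. UGE was 96.5-fold above Sca-1Neg (log2 difference 6.59 ± 0.36) and 27.6-fold above Sca-1Hi. Sca-1Hi exceeded Sca-1Neg by 1.81 ± 0.36 (3.50-fold, limma adjusted p = 0.00653). Sca-1Lo lay 1.28 ± 0.33 above Sca-1Neg (2.43-fold), short of the threshold (adjusted p = 0.0684). Sca-1Hi and Sca-1Lo differed by 0.52 ± 0.36 (adjusted p = 0.661).

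The second probe set of *Igf2bp2* read 1034, 1412 and 1293 in UGE, 99.3, 154 and 137 in Sca-1Hi, 44.2, 46.4, 115 and 117 in Sca-1Lo, and 23.1, 16.1, 29.8 and 41.4 in Sca-1Neg. There Sca-1Hi exceeded Sca-1Neg by 2.30 ± 0.41 (adjusted p = 0.00352) and Sca-1Lo lay 1.48 ± 0.38 above Sca-1Neg (adjusted p = 0.0652).

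The 4 Sca-1Lo arrays fell into pairs in both *Igf2bp2* probe sets, and the pairs matched the numbers that a table of the study gives its samples. Replicates 1 and 2 of the labels carry study numbers 1 and 2 and had 48.8 and 50.6; replicates 3 and 4 carry numbers 4 and 5 and had 136 and 121. What these numbers stand for is not stated. Within numbers 3 to 5, Sca-1Lo exceeded Sca-1Neg by 1.79 (adjusted p = 0.0299) and within numbers 1 and 2 by 0.78 (adjusted p = 0.187). The difference between these was 1.01 ± 0.36 (limma, unadjusted p = 0.0220, adjusted p over all probe sets 0.258), a test added after the data had been seen and prompted by this split. For Sca-1Hi over Sca-1Neg the values were 1.55 (adjusted p = 0.0228) and 2.13, the second resting on Sca-1Hi replicate 1 alone. The call of Sca-1Lo over Sca-1Neg was also gained when Sca-1Lo replicate 1 (1.52, adjusted p = 0.0491) or replicate 2 (1.50, adjusted p = 0.0341) was left out, and with the 2 sets of study numbers (1 and 2, 3 to 5) as a block (1.28, adjusted p = 0.0317).

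**Figure D2:**
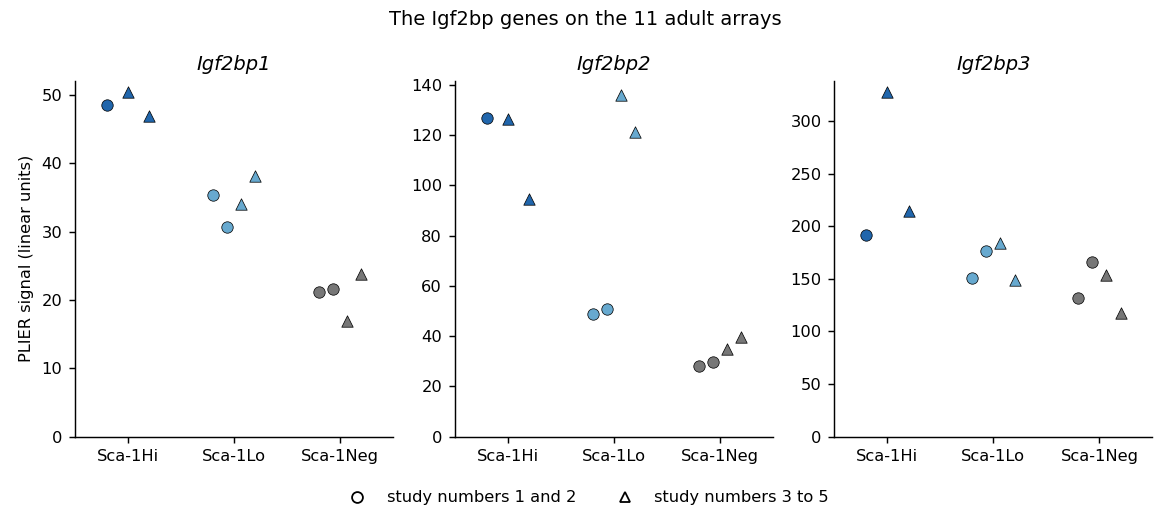
PLIER signal (linear axis from 0) of *Igf2bp1*, *Igf2bp2* and *Igf2bp3* on the 11 adult arrays, 1 point per array; circles are study numbers 1 and 2, triangles 3 to 5. *Igf2bp1* falls in 3 separate bands, and the Sca-1Lo points of *Igf2bp2* lie at 48.8 and 50.6 (circles) and at 136 and 121 (triangles).

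Markers of several other cell types, but not of all, moved with these adult differences. Of the 4 secretory luminal genes 0 were called in Sca-1Hi or Sca-1Lo over Sca-1Neg (median log2 difference -0.01 and 0.18). Of the 8 fibroblast and mesenchyme genes 0 were called higher and 1 lower in Sca-1Hi, and 0 either way in Sca-1Lo (median 0.04 and 0.33). Of all genes, 6.12% were called higher and 5.21% lower in Sca-1Hi over Sca-1Neg. In Sca-1Lo over Sca-1Neg 1.69% were called higher, and 142 of 17170 lower. The 6 endothelial genes summed to 6483 to 12063 in Sca-1Hi and 3917 to 8569 in Sca-1Lo, against 990.1 to 3663 in Sca-1Neg. In each comparison 5 of 6 were called higher. The 5 basal genes summed to 17357 to 26251 in Sca-1Hi, 8576 to 26833 in Sca-1Lo and 1663 to 7862 in Sca-1Neg, with 5 and 3 called higher. The 7 leukocyte genes summed to 488.4 to 2004 in Sca-1Hi and 1947 to 9308 in Sca-1Lo, against 5836 to 21878 in Sca-1Neg, with 6 of 7 called lower in Sca-1Hi and 1 of 7 in Sca-1Lo. The 6 smooth muscle genes summed to 7751 to 22626 in Sca-1Hi, 9932 to 21656 in Sca-1Lo and 24503 to 71486 in Sca-1Neg. Of the defining markers, *Pecam1* of endothelium was at or below 20 on every Sca-1Neg array and *Ptprc* of leukocytes on every Sca-1Hi array. The 3′ to 5′ log2 ratio of the *Gapdh* control probe sets was 3.07 to 3.48 in Sca-1Hi, 1.98 to 3.22 in Sca-1Lo and 1.66 to 2.75 in Sca-1Neg, and that of *Actb* was 1.59 to 2.77 in Sca-1Hi, 1.72 to 2.27 in Sca-1Lo and 1.17 to 2.11 in Sca-1Neg. In Sca-1Lo the *Gapdh* ratio was 2.54 and 1.98 in replicates 1 and 2 and 3.10 and 3.22 in replicates 3 and 4, but that of *Actb* 2.27 and 1.80 against 1.91 and 1.72. In the same order the endothelial sum was 3917 and 4078 against 7413 and 8569, the basal sum 14581.5 and 8576 against 26833 and 26101.5, the sum of the 8 fibroblast and mesenchyme genes 22566 and 11897 against 56310.1 and 69312, and the leukocyte sum 9308 and 5852 against 1947 and 1968. Their part in the *Igf2bp2* and *Igf2bp1* differences was not tested, and in such mixtures fewer cells of a type and less RNA per cell cannot be told apart.

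*Igf2bp3* (chr6:49085218-49215469) is the family member most confined to embryos and tumours. Its signal was 5943, 9614 and 6519 in UGE, 192, 328 and 215 in Sca-1Hi, 151, 176, 184 and 149 in Sca-1Lo, and 132, 166, 153 and 118 in Sca-1Neg. UGE was 51.0-fold above Sca-1Neg (log2 difference 5.67 ± 0.26) and 30.2-fold above Sca-1Hi. All Sca-1Hi arrays lay above all Sca-1Lo and Sca-1Neg arrays, by 0.54 ± 0.26 (adjusted p = 0.522) and 0.76 ± 0.26 (adjusted p = 0.0719), and neither was called. Sca-1Lo and Sca-1Neg overlapped.

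A pair of further *Igf2bp3* probe sets disagreed among the UGE replicates. The first of the pair read 13358, 147 and 112 on UGE replicates 1, 2 and 3, and the second read 149.7, 40340 and 27959. Each was thus high where the other was low, and the low readings lay within or near the adult range, which was 122 to 318 for both together. The second ranked 1 by signal among all probe sets on UGE replicate 2 and 2 on replicate 3, but 15501 on replicate 1. Its spread over the UGE replicates, 8.07 on the log2 scale, was equalled or passed by 5 of 41031 probe sets, itself included, and that of the first (6.90) by 16. The cause was not tested. In UGE over Sca-1Neg the first alone differed by 1.61 ± 1.17 on the log2 scale and was not called. The second differed by 5.05 ± 1.34 and was called, and both overlapped Sca-1Neg. The brighter of the pair was 13358 or more on every UGE array and 318 or less on every adult array. It was the first on UGE replicate 1 and the second on replicates 2 and 3. This pick follows the signal itself, so nothing is read from it. The remaining 3 probe sets were higher in UGE and at or below 23.2 on the adult arrays. One read 361, 550 and 463 in UGE, at least 22.6-fold above Sca-1Neg. Another read 308, 488 and 419, at least 19.9-fold above, and the last 30.2, 59.4 and 25.7, at least 1.79-fold above.

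**Figure D3:**
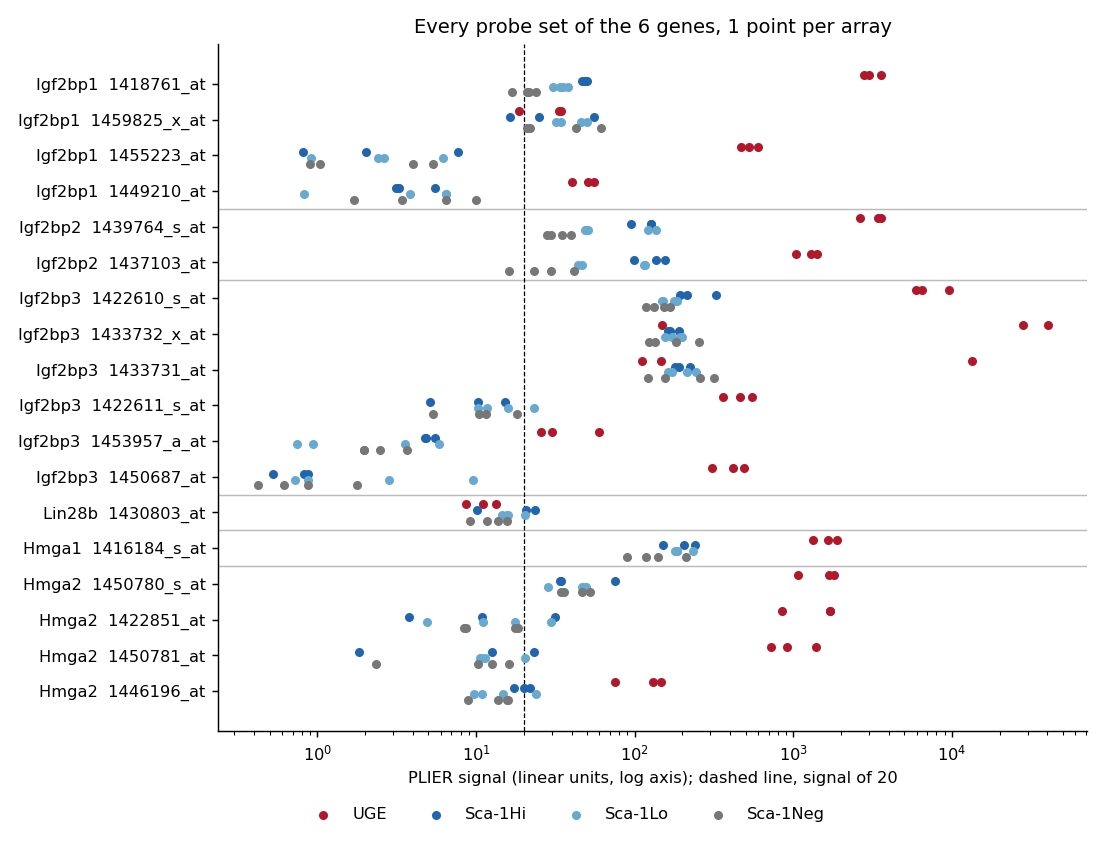
PLIER signal (log axis) of all 18 probe sets of the 6 genes, 1 point per array, with UGE above the adult populations in each row; the dashed line is a signal of 20. In 14 of the 18 probe sets every UGE point lies right of every Sca-1Neg point. The genes were chosen on this contrast and the share over all probe sets is not given, so nothing is read from that count. In a pair of *Igf2bp3* probe sets the UGE points split in opposite ways.

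*Hmga2* (chr10:120361268-120476469), which keeps progenitor cells dividing and is the classic let-7 target, read 1687, 1070 and 1815 in UGE, 75.7, 34.5 and 33.8 in Sca-1Hi, 49.5, 46.8, 48.9 and 28.6 in Sca-1Lo, and 34.5, 46.2, 52.5 and 36.0 in Sca-1Neg. UGE was 35.6-fold above Sca-1Neg (log2 difference 5.16 ± 0.34) and 33.4-fold above Sca-1Hi. The 3 adult populations overlapped throughout, with differences of 0.10 ± 0.34 for Sca-1Hi over Sca-1Neg (adjusted p = 0.886), 0.03 ± 0.31 for Sca-1Lo over Sca-1Neg (adjusted p = 0.989) and 0.07 ± 0.34 for Sca-1Hi over Sca-1Lo (adjusted p = 0.977). Sca-1Hi over Sca-1Neg was -0.35 within study numbers 3 to 5 (adjusted p = 0.566) and 0.92 within numbers 1 and 2. These differed by -1.27, but in numbers 1 and 2 Sca-1Hi is replicate 1 alone, so no p is given. Its other 3 probe sets were high in UGE too and at or below 31.7 on every adult array. One read 1696, 851 and 1716 in UGE, at least 67.6-fold above Sca-1Neg, another 914, 728 and 1381, at least 48.6-fold above, and the last 74.7, 130 and 147, at least 5.62-fold above. Sca-1Hi replicate 1 was the highest adult array in 3 of the 4 probe sets, with 75.7, 31.7 and 23.2. UGE replicate 2 was the lowest UGE array in 3 of the 4.

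*Hmga1* (chr17:27556574-27563672), a related chromatin protein gene made by most dividing cells, had the smallest fetal difference of the 5. It read 1336, 1892 and 1659 in UGE, 238, 204 and 152 in Sca-1Hi, 184, 181, 234 and 185 in Sca-1Lo, and 89.5, 119, 210 and 139 in Sca-1Neg. UGE was 12.1-fold above Sca-1Neg (log2 difference 3.60 ± 0.29), 8.29-fold above Sca-1Hi and 8.28-fold above Sca-1Lo. The adult populations overlapped. Sca-1Hi and Sca-1Lo each lay 0.55 above Sca-1Neg (SE 0.29 and 0.27, adjusted p = 0.229 and 0.392) and differed by -0.00 ± 0.29 (adjusted p = 0.999). The excess of Sca-1Hi over Sca-1Neg was 0.04 within study numbers 3 to 5 (adjusted p = 0.950) and 1.21 within numbers 1 and 2. These differed by -1.17, but in numbers 1 and 2 Sca-1Hi is replicate 1 alone, so no p is given. *Hmga1* has 1 probe set, of a type that can match related transcripts such as *Hmga1b*. The probe sets that stand for *Igf2bp2*, *Igf2bp3* and *Hmga2* are of the same type.

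*Lin28b* (chr10:45376617-45486314), whose protein blocks let-7 maturation, read 8.58, 11.1 and 13.3 in UGE, 23.4, 20.5 and 10.1 in Sca-1Hi, 15.8, 15.6, 14.6 and 20.3 in Sca-1Lo, and 11.8, 9.14, 13.8 and 15.7 in Sca-1Neg. UGE overlapped Sca-1Hi and Sca-1Neg and lay below Sca-1Lo, with all groups averaging under the minimum of 20, and no fold change is given. It was called in none of the adult comparisons. *Lin28a*, its paralog, was at most 17.3 on every array in both of its probe sets. Signals at or near the minimum of 20 do not show that the RNAs are absent.

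The 5 genes with signal varied together over the 14 arrays (Pearson r of log2 signal from 0.932 for *Igf2bp2* and *Hmga2* to 0.991 for *Igf2bp1* and *Igf2bp3*), a description that rests mainly on the gap between UGE and adult cells. The genes most like *Igf2bp1* were *Xist* (r = 0.995), the RNA of the inactive X chromosome, *Rad51ap1* (0.989), of DNA repair, and *Cyp4f39* (0.989). *Xist* was also the gene most like *Igf2bp3* (0.996), followed by *Neto2* (0.991) and *Cit* (0.990), a kinase of cytokinesis, and it was 1 of the 3 most like *Hmga1* (0.979), with *Rcc2* (0.983) and *Slc40a1* (0.981), the iron exporter. *Xist* averaged 7977 in UGE, 126.2 in Sca-1Hi, 93.3 in Sca-1Lo and 60.0 in Sca-1Neg, so UGE and the male adult samples also differ in the RNA that marks female cells. *Igf2bp2* was most like *Mis18a* (0.985), of centromeres, *Syt9* (0.982) and *Sox11* (0.976), a transcription factor of embryonic progenitors. *Sox11* read 137, 112, 204 and 267 in Sca-1Lo, its 2 higher values on replicates 3 and 4 as for *Igf2bp2*. *Hmga2* was most like *Hells* (0.987), a chromatin remodeller of dividing cells, *Dcdc2a* (0.986) and *Slc38a4* (0.984). The likeness of *Lin28b* was lower (*Snx22* 0.808, *Klrg2* 0.795 and *Hes3* 0.786) and *Lin28b* itself was at or near the minimum of 20.

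The gene lists from here on were written with earlier results of these data known. Most called genes named from them were picked by size of change, so their p-values are a description. Of 12 measured genes that make or restrain let-7, 6 were called higher and 0 lower in UGE over Sca-1Neg (16.4% and 12.9% of all genes), with a median log2 difference of 0.91. *Tut4*, which adds uridines to let-7 precursors bound by Lin28, read 1852, 2037 and 2176 in UGE and 481, 407, 543 and 733 in Sca-1Neg, a difference of 1.93 ± 0.37 (limma adjusted p = 0.00185) with no overlap. The Argonaute genes *Ago1* (1.50 ± 0.33, adjusted p = 0.00405) and *Ago2* (1.26 ± 0.32, adjusted p = 0.0105), whose proteins carry microRNAs, and *Drosha* (1.19 ± 0.32, adjusted p = 0.0131), which cuts their primary transcripts, were called too, *Drosha* not without UGE replicate 3 (1.12, adjusted p = 0.0561). *Dgcr8*, the partner of Drosha, and *Khsrp* completed the 6, and *Dicer1* (0.74), *Xpo5* (0.89), *Tarbp2* (0.97), *Tut7* (0.59), *Dis3l2* (0.14) and *Trim71* (0.77) were not called. In UGE over Sca-1Hi 5 were called higher and in UGE over Sca-1Lo 6. None of the 12 was called in an adult comparison. Of all genes, 6.12% (Sca-1Hi over Sca-1Neg), 1.69% (Sca-1Lo over Sca-1Neg) and 0.0815% (Sca-1Hi over Sca-1Lo) were called higher there.

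Of 22 other let-7 target genes, 9 were called higher and 1 lower in UGE over Sca-1Neg (16.4% and 12.9% of all genes). The median log2 difference of the 22 was 0.26 beside 0.07 for all genes, and the list was written with earlier results known. In UGE over Sca-1Hi 8 were called higher and 1 lower (15.9% and 12% of all genes). *Mycn*, an embryonic Myc family transcription factor, read 2912, 3786 and 4940 in UGE and 27.7, 58.2, 6.60 and 45.0 in Sca-1Neg, a difference of 7.17 ± 0.57 (adjusted p = 1.69e-06), or 6.51 without Sca-1Neg replicate 3, the array at 6.60. *Plagl2*, a zinc finger transcription factor, read 721, 1782 and 1267 in UGE against 87.2, 85.3, 112 and 56.7 in Sca-1Neg (3.83 ± 0.38, adjusted p = 1.02e-05). *Nras*, a growth signalling GTPase (2.72 ± 0.49, adjusted p = 0.00121), and *Rrm2*, which makes deoxynucleotides (2.25 ± 0.29, adjusted p = 7.69e-05), were called as well. *Myc* went the other way, at 155, 134 and 112 in UGE against 245, 205, 475 and 330 in Sca-1Neg (-1.17 ± 0.38, adjusted p = 0.0359), but this call was lost without any 1 of the UGE arrays or without Sca-1Neg replicate 3 or 4 (-0.94 to -1.28, adjusted p up to 0.128). Without UGE replicate 2 or UGE replicate 3 the count of genes higher was 5.

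In Sca-1Hi over Sca-1Neg 1 of the 22 was called higher and 1 lower (6.12% and 5.21% of all genes). *Mycn* read 90.5, 72.4 and 135 in Sca-1Hi and 51.9, 50.6, 67.9 and 85.1 in Sca-1Lo, so Sca-1Hi exceeded Sca-1Neg by 1.87 ± 0.57 (adjusted p = 0.0488). Without Sca-1Neg replicate 3 the excess was 1.20 (adjusted p = 0.0364), and the call held in only 3 of the 14 fits that left out an array, with adjusted p up to 0.164. The count of 1 became 0 without any 1 of UGE replicates 1, 2 and 3, Sca-1Hi replicates 2 and 3, Sca-1Lo replicates 1, 3 and 4 and Sca-1Neg replicate 1, and 2 without Sca-1Neg replicate 3. *Tgfbr1*, a TGF-β receptor gene, fell by 1.04 on the log2 scale (adjusted p = 0.0411), a call that held in 4 of the 14 such fits.

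**Figure D4:**
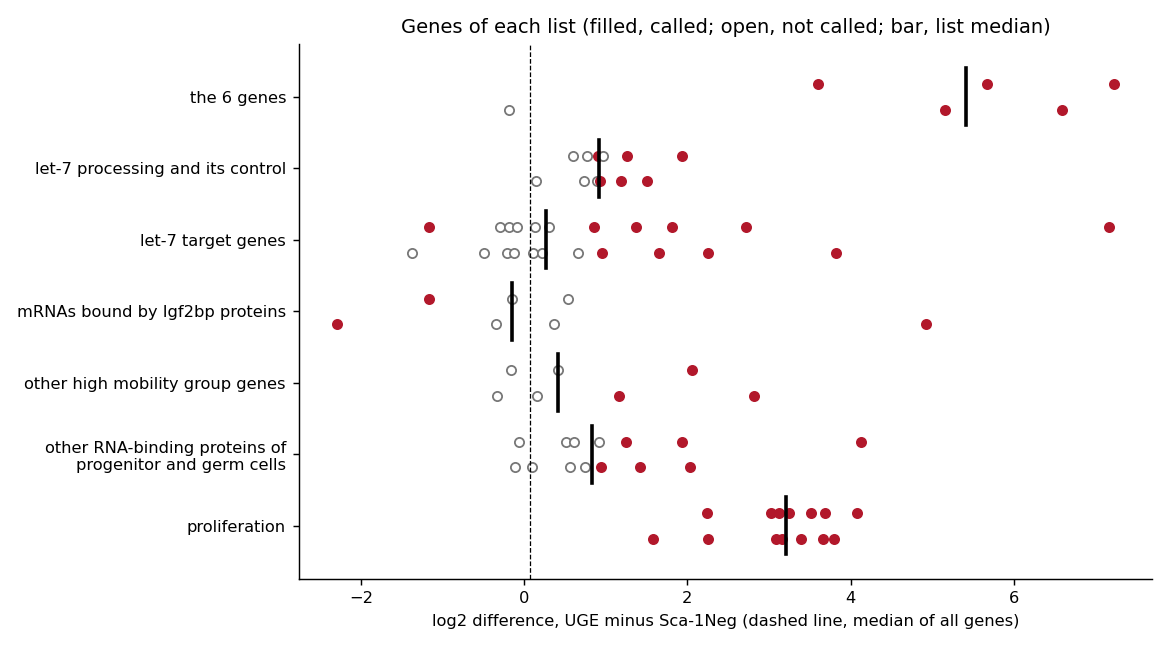
Log2 difference of UGE minus Sca-1Neg for each measured gene of 7 lists; filled points were called, open points were not, bars are list medians and the dashed line is the median of all genes (0.07). The proliferation genes are all called higher and the let-7 target genes scatter on both sides of the line, with *Mycn* at 7.17.

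Of mRNAs known to be bound by Igf2bp proteins, 7 were measured. In UGE over Sca-1Neg 1 was called higher and 2 lower (16.4% and 12.9% of all genes), near what any 7 genes would give. *Igf2* read 4894, 6748 and 5193 in UGE, 460, 301 and 301 in Sca-1Hi, 110, 117, 149 and 144 in Sca-1Lo, and 174, 142, 113 and 404 in Sca-1Neg. UGE exceeded Sca-1Neg by 4.92 ± 0.37 (adjusted p = 9.92e-07). All Sca-1Hi arrays lay above all Sca-1Lo arrays (1.43 ± 0.37, adjusted p = 0.269), which was not called. *Cd44*, a hyaluronan receptor, read 164, 73.3 and 175 in UGE against 656, 735, 491 and 651 in Sca-1Neg (-2.29 ± 0.38, adjusted p = 0.000655), and *Myc* was the other gene called lower.

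The relatives of the 6 genes did not all share the pattern. Of 7 other high mobility group genes, 3 were called higher in UGE over Sca-1Neg and 0 lower (16.4% and 12.9% of all genes). The 3 were *Hmgb3* (3378, 2360 and 3071 in UGE against 462, 375, 576 and 292 in Sca-1Neg), *Hmgb2* (2.06 ± 0.27, adjusted p = 9.73e-05) and *Hmgn1* (1.16 ± 0.33, adjusted p = 0.0200), whose products bend or bind DNA and nucleosomes. The *Hmgn1* call was lost without UGE replicate 2 or 3 or Sca-1Neg replicate 1 or 2 (0.95 to 1.13, adjusted p up to 0.0739). *Hmgb2* was also called in Sca-1Hi over Sca-1Neg (1.33 ± 0.27, adjusted p = 0.00704). Of 14 other RNA-binding protein genes of progenitor and germ cells, 6 were called higher in UGE over Sca-1Neg and 0 lower (16.4% and 12.9% of all genes). The neural progenitor gene *Msi1* led with 372, 827 and 821 in UGE against 37.8, 38.5, 26.6 and 43.4 in Sca-1Neg (4.13 ± 0.36, adjusted p = 3.55e-06), followed by *Elavl2* (2.04 ± 0.52, adjusted p = 0.0103) and *Syncrip* (1.42 ± 0.32, adjusted p = 0.00485). *Elavl4* (adjusted p = 0.0300) read 215.7, 37.4 and 32.4 in UGE, and was not called without UGE replicate 1 (1.05, adjusted p = 0.128) or Sca-1Neg replicate 1 or 3 (adjusted p = 0.0522 and 0.0666). In Sca-1Hi over Sca-1Neg, *Ybx3* was called (1.12 ± 0.30, adjusted p = 0.0284), though not without any 1 of the Sca-1Hi arrays or without Sca-1Neg replicate 1 or 2 (adjusted p up to 0.0973).

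Division and cell makeup moved with the fetal comparison too. All 14 proliferation genes were called higher in UGE over each adult population, where 16.4% (Sca-1Neg), 15.9% (Sca-1Hi) and 13.5% (Sca-1Lo) of all genes were. Called lower were 12.9% and 12% of all genes over Sca-1Neg and Sca-1Hi, and 2085 of 17170 over Sca-1Lo. The summed signal of the 14 was 21693 to 27152.5 in UGE against 2659 to 4246 on the adult arrays. None was called in an adult comparison. Of all genes, 6.12% (Sca-1Hi over Sca-1Neg), 1.69% (Sca-1Lo over Sca-1Neg) and 0.0815% (Sca-1Hi over Sca-1Lo) were called higher there. The 5 epithelial markers summed to 22390 to 30838 in UGE, 16026 to 20905 in Sca-1Hi, 14643 to 21575 in Sca-1Lo and 6236 to 24823 in Sca-1Neg. The 5 basal genes summed to 21522 to 28004 in UGE, with 4 called higher than in Sca-1Neg and 0 than in Sca-1Hi or Sca-1Lo. Of 6 urogenital sinus markers, 4 were called higher and 0 lower in UGE over Sca-1Neg, 1 higher and 1 lower in UGE over Sca-1Hi, and 2 higher and 0 lower in UGE over Sca-1Lo, and they summed to 14871 to 23207 in UGE, 11157 to 18742 in Sca-1Hi, 8348 to 19330.4 in Sca-1Lo and 3355 to 16982 in Sca-1Neg. Only *Foxa2* was called higher in all 3, at 604 to 1482 in UGE and at most 10.2 in adult cells, while *Sox9* (427, 501 and 551 in UGE against 989.8, 1534 and 1192 in Sca-1Hi) was the gene called lower. The 4 secretory luminal genes summed to at most 92.7 in UGE against 26239 or more on the adult arrays. The 8 fibroblast and mesenchyme genes summed to 19858, 6414 and 7601 on UGE replicates 1, 2 and 3, and the 4 nerve and glia genes to between 456.6 and 4465, and the sums in adult cells were 11897 to 69312 and 124.7 to 13481. The 6 endothelial genes summed to 157 to 591 in UGE, with 6 of 6 called lower in UGE than in Sca-1Hi and in Sca-1Lo and 4 of 6 than in Sca-1Neg. The 6 smooth muscle genes summed to 998 to 2778 in UGE, with 6 called lower than in Sca-1Neg and 5 than in each of the others. The 7 leukocyte genes summed to 377 to 514 in UGE, with 5 called lower than in Sca-1Neg. Over Sca-1Hi 1 of them was called higher and 1 lower, and over Sca-1Lo 0 higher and 1 lower. The 3′ to 5′ log2 ratio in UGE was 1.83 to 2.38 for *Gapdh* and 1.54 to 2.09 for *Actb*. The part of division, age, sex, handling, RNA quality and cell makeup in the fetal difference was not tested.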

How the data were processed

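The authors hybridized RNA of 14 samples (20 ng, from 10000 to 50000 cells where sorted, labelled over 2 cycles) to MOE430 2.0 arrays and deposited PLIER signal intensity values on a linear scale. Their methods name ArrayAssist, MAS5 for detection calls (not used here) and PLIER as the multi-array model, and no separate step between arrays. Array medians were 80.7 to 99.5 over the probe sets kept, and precision is limited by 3 or 4 arrays a group.

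Log2 of the signal was taken with no constant added. Of 45101 probe sets, 41031 had a signal above 20 on at least 1 array and were no array control. The platform annotation named 1 gene for 34945 of the 45101, and 28 more, those of *Igf2bp2* and *Hmga1* among them, were named through the study's supplementary tables. Probe sets with several genes (932) were not named. Each of 17170 genes stands for its probe set of highest mean. The 6 comparisons were drawn from 1 fit of 4 group means (limma 3.58.1, lmFit and eBayes, R 4.3.3). Where 1 group averaged below 20 or had no array above it, its signals were set to no less than 20 and the fold is given as "at least".

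The members and gene lists were chosen with earlier results of these data known. Genes named are the 6 members, the 3 genes most correlated with each, up to 4 called genes of each list by change in UGE over Sca-1Neg and up to 2 in adult comparisons, and *Lin28a* and *Igf2*; *Foxa2*, *Sox9*, *Pecam1* and *Ptprc* were named after their values were seen. Values of list genes in UGE over Sca-1Neg come from the same fit. Study numbers were joined to arrays by matching 1050 probe sets of a supplementary table, to within 1.2e-05. The fit was tested on simulated data. Alternatives were centring on the 75th percentile, quantile normalization, the addition of 16 before log2, a filter of 3 arrays above 20 or none, a fit of only the groups compared, the methods' t-test, a block of the labels' replicate number, a block of the 2 sets of study numbers (1 and 2, 3 to 5), either set of study numbers, the mean of a gene's probe sets, and each array left out. Leaving out arrays for the list genes named, and the test of the difference between the sets of study numbers, were added after the data were seen. Same-numbered Sca-1Lo and Sca-1Neg arrays correlated in their deviations from the group means by 0.12 to 0.56. Some other-numbered arrays did too, by 0.409 (Sca-1Lo replicate 2 and Sca-1Neg replicate 1) and 0.445 (Sca-1Lo replicate 3 and Sca-1Neg replicate 4). Pairing by replicate number thus could not be told from a shared set of study numbers, and the main fit used no pairing. Sequences were read from RefSeq tables with Python 3.11.15 and pandas 2.3.3.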

Additional observations from a re-analysis of the deposited data

Results flagged for a closer look

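In each group of 4 arrays the highest and lowest value of every gene were compared with the rest on the log2 scale (12 groups), a check that chance alone trips in about 1 group in 20. *Hmga1* stood apart on Sca-1Lo replicate 3, with a signal of 234.1 beside 181 to 185 on the other arrays. *Hmga2* stood apart on Sca-1Lo replicate 4, with a signal of 28.6 beside 46.8 to 49.5.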

How the results depend on the processing

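The counts of 5 members higher in UGE, which the choice of the genes fixes, held under all 25 alternatives of each of the 3 fetal comparisons, and that of 0 in Sca-1Hi over Sca-1Lo under all 26. In Sca-1Hi over Sca-1Neg the count of 2 became 1 with the mean of the probe sets of a gene and stayed at 2 with each array left out. Study numbers 1 and 2 hold Sca-1Hi replicate 1 alone, so no count is given for them. In Sca-1Lo over Sca-1Neg the count of 0 became 1, *Igf2bp2* each time, with centring on the 75th percentile, with the block of the 2 sets of study numbers, with study numbers 3 to 5 only and with the mean of the probe sets, and was 0 to 1 with arrays left out (1 without Sca-1Lo replicate 1 or 2). The count of 9 let-7 target genes higher in UGE over Sca-1Neg was 5 by the methods' t-test and 5 to 9 with arrays left out. That of 1 in Sca-1Hi over Sca-1Neg was 0 with no filter, only the 2 groups compared or the methods' t-test. It was also 0 with study numbers 3 to 5 only or the mean of the probe sets. With 16 added, quantile normalization or the replicate block it was 2, and with arrays left out 0 to 2. The cause of these changes was not tested. Of 918 values of a member under an alternative, 2 lost a call, 7 gained one and 0 called values reversed; 27 of 484 uncalled ones changed sign. *Lin28b*, at or near the minimum of 20, was called lower in UGE over Sca-1Hi without Sca-1Hi replicate 3 (-1.02, adjusted p = 0.0367). Centring on the 75th percentile moved the median probe set by -0.20, -0.14 and -0.18 in UGE over Sca-1Neg, Sca-1Hi and Sca-1Lo, and quantile normalization by 0.11 in UGE over Sca-1Hi and -0.13 in Sca-1Hi over Sca-1Neg. Quantile normalization turned 14 genes higher and 3 lower in Sca-1Hi over Sca-1Lo into 22 and 9. Over all groups 11 of 19 pairs with the same replicate number in the labels correlated above 0.1 in their deviations (-0.45 to 0.56). Other-numbered pairs did so in 19 of 54 (-0.676 to 0.695). These pairs include UGE, and Sca-1Hi replicate 2 carries study number 3, so the counts do not decide whether study numbers pair adult samples. Sca-1Hi replicate 1 shares study number 1 with replicate 1 of Sca-1Lo (0.505) and of Sca-1Neg (0.356). Sca-1Hi replicate 3 shares number 4 with replicate 3 of Sca-1Lo (0.284) and of Sca-1Neg (-0.057). No block of the single study numbers was fitted. With the replicate block the counts of members stayed at 5, 5, 5, 2, 0 and 0, and *Igf2bp2* in Sca-1Lo over Sca-1Neg at 1.28 (adjusted p = 0.0558), so the block changed no call of a member. Signals near 20 limit *Lin28b*, *Igf2bp1* in Sca-1Neg and several second probe sets.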
